A study of Sus scrofa with 92 samples.

Results

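The genes described here are 3 neutrophil alarmins, S100A8, S100A9 and S100A12, the scavenger receptor OLR1 (LOX-1), and CSF3R, the receptor for granulocyte colony-stimulating factor, in pig liver after hemorrhagic shock and polytrauma. They were found as the rows of the count table whose pig Ensembl identifiers carry these symbols, 5 of the 25322 identifiers in the table: ENSSSCG00000006590 (S100A8), ENSSSCG00000006588 (S100A9), ENSSSCG00000006589 (S100A12), ENSSSCG00000000647 (OLR1) and ENSSSCG00000025795 (CSF3R). Of these 5 rows, 4 held counts, and CSF3R held 0 counts in every library used. In the RefSeq annotation of assembly Sscrofa11.1, a later build than the one the reads were aligned to, the S100 genes are neighbors on chromosome 4 in the order S100A8, S100A12, S100A9. OLR1 lies on chromosome 5 between TMEM52B and CLEC7A, and CSF3R lies on chromosome 6.

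S100A8 and S100A9 form calprotectin, a calcium-binding complex that is the most abundant cytosolic protein of neutrophils and is also made by monocytes. S100A12 (calgranulin C) is a related neutrophil protein. When released from stressed or dying cells, all of them act as alarmins, which are self proteins that signal injury through the receptors TLR4 and RAGE. OLR1 takes up oxidized low-density lipoprotein and is induced on endothelium and macrophages by inflammation and shear. CSF3R drives the production and survival of neutrophils and is carried by mature neutrophils. A healthy liver holds few neutrophils outside its vessels, and they are recruited into its sinusoids after injury.

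RNA-seq of liver biopsies was carried out in 23 juvenile male Yorkshire-Landrace pigs, with a biopsy of each taken at Baseline (B) and again after 2 (FR2), 8 (FR8) and 20 hours (FR20) of full resuscitation. All animals had an overnight fast, anesthesia and splenectomy, then blunt chest injury, hemorrhage and a liver crush injury. The 18 fasted (FS) animals were given no sugar, and the 5 carbohydrate prefed (CPF) animals were given a bolus of diluted corn syrup before anesthesia. Of them, 3 FS and 2 CPF animals died. There was no group without injury, so time, repeated biopsy, anesthesia and resuscitation cannot be told apart from the shock itself.

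The 88 libraries used were 15 FS at B, 18 FS at each later timepoint, 5 CPF at B, FR2 and FR20, and 4 CPF at FR8. They held 6877117 to 16613261 counts on genes, with a median of 12071957.5. Left out were the Baseline libraries of FS animals 17, 19 and 21, in which albumin was near 0, and the FR8 library of CPF animal 3, with 4388 counts in all. In the 88 libraries albumin was at 13202 to 168246 CPM (counts scaled to a common library size by the trimmed mean of M values). Each library was also set against the mean profile of each timepoint over 1000 genes that vary with time, leaving out its own animal and the genes described here. Of the 88, 70 were most like their own timepoint and 18 were most like another. In FS animals 9, 10, 17, 19 and 21, 14 libraries were most like another timepoint, at least 2 in each animal. For example, the FR8 libraries of animals 17, 19 and 21 correlated with the Baseline mean at r = 0.90, 0.70 and 0.91 and with the FR8 mean at r = −0.73, −0.57 and −0.75. These libraries were kept under their labels, and the results that rest on them are given with and without all libraries of these 5 animals. Among CPF animals, the FR20 library of animal 13 was most like the Baseline mean (r = 0.87, against −0.49 with the FR20 mean). The FR20 library of CPF animal 8 was most like the FR8 mean (r = 0.57, against 0.54 with the FR20 mean). Both were also kept under their labels. On own totals, 4410 genes had a median over 20 CPM, and at most 1 of them had 0 counts in each of 86 libraries. In the FR2 and FR8 libraries of FS animal 11, 446 and 443 of them did. The S100 genes and OLR1 had counts in both, and values without this animal are given where they change a call.

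S100A12, S100A8 and S100A9 were barely detected in Baseline liver and rose at FR2 in FS animals. S100A12, S100A9 and OLR1 also rose at FR2 in CPF animals. In FS animals the fitted rise from B to FR2 was 9.78-fold for S100A12 (95% interval 4.37 to 21.9), 9.80-fold for S100A8 (3.80 to 25.3) and 12.2-fold for S100A9 (5.20 to 28.6). OLR1 was readily detected at Baseline and rose 2.95-fold (2.23 to 3.89). At FR20 the FS median of each of the 4 genes lay between those of B and FR2. The biopsies are bulk tissue, in which fewer cells of a type and less RNA per cell cannot be told apart.

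**Figure D1:**
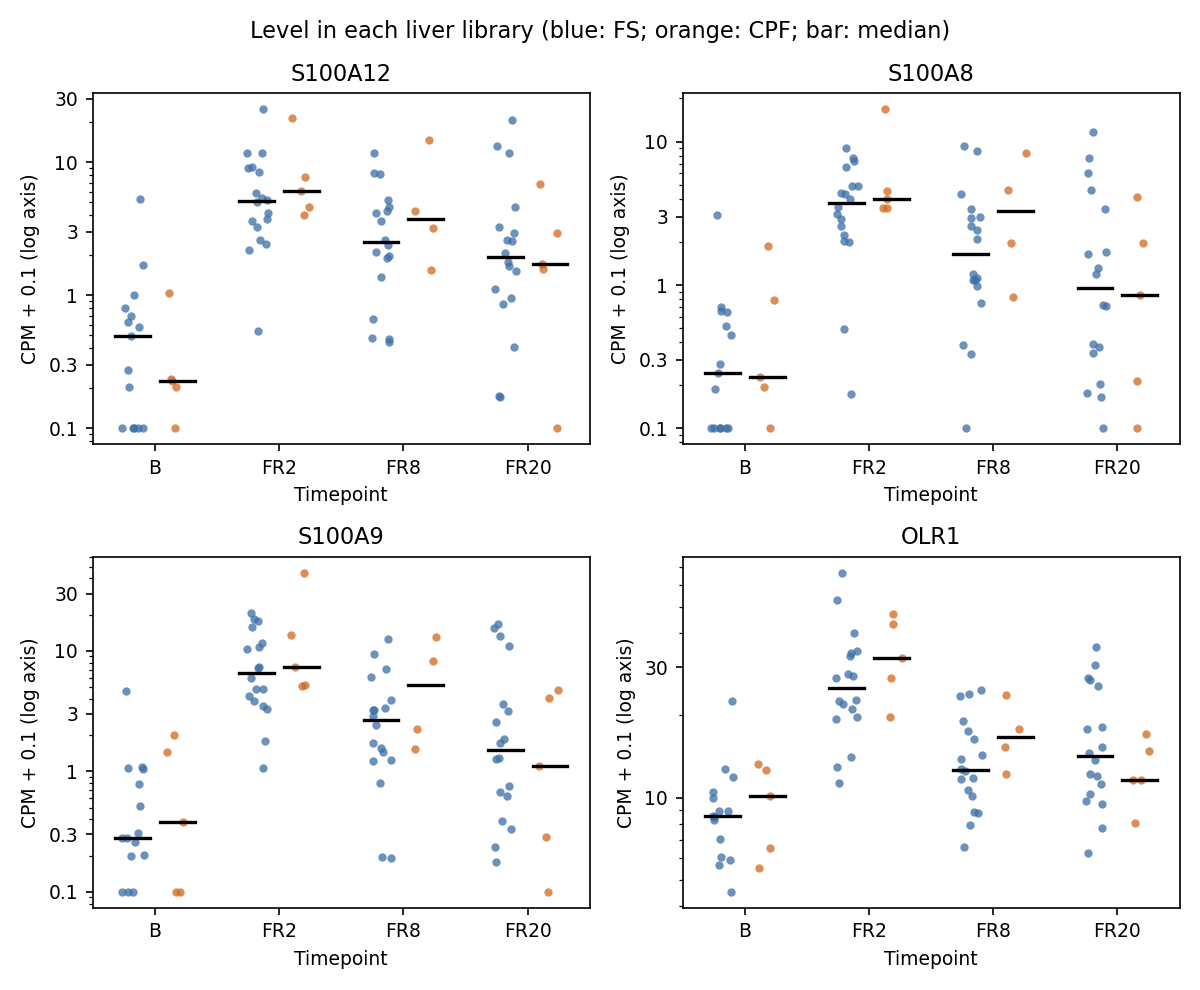
Level of each gene in each of the 88 liver libraries at B, FR2, FR8 and FR20, in FS animals (blue) and CPF animals (orange), as CPM plus 0.1 on a log axis, with bars at the group medians. The 3 S100 genes sit near the bottom of the axis at B and are highest at FR2, and OLR1 rises from 8.46 to 25.0 CPM between the FS medians at B and FR2.

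S100A9, the larger calprotectin subunit, had 0 to 4.57 CPM at B in the 15 FS animals, with a median of 0.182. Its FS level was 0.958 to 20.5 CPM at FR2 (median 6.48), 0.0916 to 12.6 at FR8 (median 2.56) and 0.0756 to 16.7 at FR20 (median 1.40). The FS medians were in the order FR2, FR8, FR20, B, and the ranges of all 4 timepoints overlapped. In CPF animals 3, 7, 8, 13 and 18 S100A9 was at 0, 1.89, 0.281, 1.36 and 0 CPM at B, and at 4.97, 44.3, 13.4, 7.33 and 5.14 CPM at FR2. Every CPF animal was above every CPF Baseline value at FR2, with animal 7 far above the rest. At FR8 animals 7, 8, 13 and 18 had 8.13, 13.03, 1.44 and 2.16 CPM. At FR20 the 5 animals had 0, 3.94, 4.66, 0.185 and 1.00 CPM, a range that overlapped Baseline. Animals 7 and 8, the CPF animals with the highest S100A9 at FR8 and FR20, were the pair that died.

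S100A8, the smaller subunit, had 0 to 2.96 CPM at B in FS animals, with a median of 0.142. At FR2 it was at 0.0737 to 8.98 CPM (median 3.65), at FR8 at 0 to 9.25 (median 1.55) and at FR20 at 0 to 11.6 (median 0.858). It was the least abundant of the measured rows by counts, with 2629 in the 88 libraries, against 4800 for S100A9, and 78 libraries held any count of it or more. In the CPF animals, in the same order, it was at 0, 0.688, 0.0936, 1.77 and 0.128 CPM at B. At FR2 it was at 3.35, 16.7, 4.41, 3.32 and 3.88 CPM, again with animal 7 highest and no overlap with B. At FR8 it was at 4.47, 8.20, 0.719 and 1.85 CPM in animals 7, 8, 13 and 18. At FR20 it was at 0.114, 1.88, 4.02, 0 and 0.752 CPM, which overlapped the Baseline range.

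S100A12 had 0 to 5.22 CPM at B in FS animals (median 0.399). It was at 0.442 to 24.8 CPM at FR2 (median 4.9975), 0.349 to 11.7 at FR8 (median 2.39) and 0.0729 to 20.6 at FR20 (median 1.83). Its order of FS medians was the same as that of S100A9, with overlapping ranges. In the CPF animals it was at 0.106, 0.945, 0, 0.136 and 0.128 CPM at B. It was at 5.93, 21.4, 7.60, 4.52 and 3.88 CPM at FR2 and, in the 4 animals with a library, at 4.20, 14.5, 1.44 and 3.08 CPM at FR8. At these timepoints no CPF animal overlapped B. At FR20 the values were 1.47, 2.81, 6.70, 0 and 1.63 CPM, and animal 13 with 0 counts lay back in the Baseline range. That library of animal 13 was most like the Baseline mean over other genes (r = 0.87).

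OLR1 differed from the S100 genes in having counts in all 88 libraries. In FS animals it was at 4.41 to 22.6 CPM at B (median 8.46), 11.2 to 66.3 at FR2 (median 25.0), 6.51 to 24.6 at FR8 (median 12.5) and 6.18 to 35.5 at FR20 (median 14.1). The FR2 median stood apart from the other 3, although the ranges overlapped. In CPF animals OLR1 was at 5.43, 12.5, 13.2, 10.0475 and 6.41 CPM at B, and at 43.0398, 27.2, 19.6, 46.8 and 32.2 CPM at FR2. The lowest FR2 value, in animal 8, was above the highest CPF Baseline value. At FR8 animals 7, 8, 13 and 18 had 12.1, 17.7, 15.3 and 23.7 CPM. At FR20 the 5 animals had 11.4591, 11.5381, 17.0408, 7.94 and 14.7 CPM, close to their Baseline range.

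CSF3R had 0 counts among 1057257914 counts in the 88 libraries, which allows a level of up to 0.00284 CPM (3 counts, counting error only). A count of 0 on this identifier does not show that the gene was silent, since whether its model in the build used takes up reads was not tested. It was not tested in any comparison, so 4 of the 5 genes passed the filter on low counts.

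In FS animals 4 of 4 tested genes were called higher at FR2 than at B, in a comparison that called 5.17% of 13667 tested genes higher. To be called, a gene needed a p under 0.05 after Benjamini-Hochberg adjustment over all tested genes and a change of at least 1 on the log2 scale, by edgeR's quasi-likelihood test with a term for each animal. The log2 fold change was 3.29 for S100A12 (SE 0.59, adjusted p = 1.197e-05) and 3.29 for S100A8 (SE 0.70, adjusted p = 0.000137). It was 3.61 for S100A9 (SE 0.63, adjusted p = 6.64e-06) and 1.56 for OLR1 (SE 0.20, adjusted p = 3.53e-08). Each S100 gene was higher at FR2 than at B in 14 of the 15 FS animals with both libraries, and OLR1 in 15 of 15. The exception for the S100 genes was animal 10, whose within-animal log2 changes were −3.15 for S100A12, −3.72 for S100A8 and −2.08 for S100A9. Its library labelled B was most like the FR8 mean (r = 0.78), and its library labelled FR2 was most like the FR20 mean (r = 0.69). Without the 5 animals whose libraries went against their labels, the log2 fold changes were 4.02 for S100A12, 4.13 for S100A8, 4.26 for S100A9 and 1.66 for OLR1, and all were higher in 13 of 13 animals. That fit also called 4 of 4, with 15.4% of all genes called in either direction.

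In FS animals 0 of 4 genes had FR2 values wholly above the B values, where 0.0293% of all genes did. Without those 5 animals S100A12 ranged from 0 to 1.59 CPM at B and from 2.09 to 11.5 at FR2, and S100A9 from 0 to 0.997 and from 1.69 to 17.5. These 2 genes then no longer overlapped, as did 1.40% of all genes. S100A8 (0 to 0.598 CPM at B, 0.397 to 8.98 at FR2) and OLR1 (4.41 to 22.6 at B, 12.8 to 66.3 at FR2) still did. In the same 13 animals S100A8 and S100A9 were wholly above B at FR8, as were 1.62% of all genes, and 0 of 4 genes were at FR20, against 0.505%. In CPF animals 4 of 4 genes had FR2 values wholly above B, against 3.76% of all genes.

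**Figure D2:**
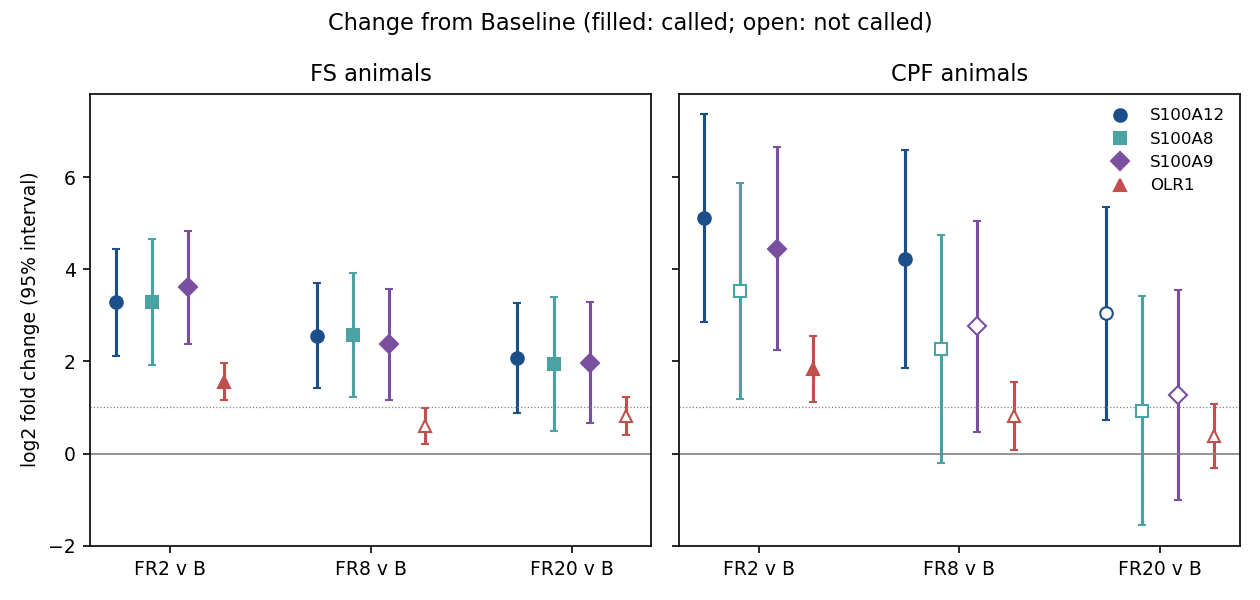
Fitted log2 fold change from Baseline with its 95% interval for each gene at FR2, FR8 and FR20, in FS animals (left) and CPF animals (right), with filled points for called changes and open points for the others. The FS estimates of the S100 genes step down from between 3.29 and 3.61 at FR2 to between 1.94 and 2.07 at FR20, and the CPF intervals are wider.

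At FR8 the S100 genes were still higher than at B in FS animals, and 3 of the 4 genes were called where 4.44% of all genes were called higher. The log2 fold changes were 2.56 for S100A12 (SE 0.58, adjusted p = 0.000339 by edgeR), 2.57 for S100A8 (SE 0.69, adjusted p = 0.00208) and 2.37 for S100A9 (SE 0.61, adjusted p = 0.00148). OLR1 stood 0.60 above B on the log2 scale (SE 0.20, adjusted p = 0.0146), under the threshold on size. At FR20 the same 3 genes of the 4 were called, where 4.68% of all genes were called higher. S100A12 was at a log2 fold change of 2.07 (SE 0.61, adjusted p = 0.0061), S100A8 at 1.94 (SE 0.74, adjusted p = 0.0367) and S100A9 at 1.97 (SE 0.67, adjusted p = 0.0183). OLR1 was 0.82 above B (SE 0.21, adjusted p = 0.00153), again under the threshold on size. With the 3 left-out FS Baseline libraries kept, edgeR called OLR1 at FR20 (1.10) and none of the S100 genes, with S100A12 at 0.63, S100A8 at 0.33 and S100A9 at 0.60. At FR20 the within-animal count was lower, with S100A12 higher in 13 of 15 FS animals, S100A9 in 12, OLR1 in 12 and S100A8 in 9. On leaving out FS animal 9 only S100A12 was called at FR20, with S100A8 at 1.53 and S100A9 at 1.58 on the log2 scale. In the fit without the 5 animals all 3 S100 genes were called at FR20, at 1.82 for S100A12, 1.53 for S100A8 and 1.41 for S100A9, where 13.3% of all genes were called in either direction.

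From FR2 to FR8, 1 of the 4 genes was called lower in FS animals, where 3.43% of all genes were. This was S100A9, which fell by 1.23 on the log2 scale (SE 0.48, adjusted p = 0.0455 by edgeR) and was lower in 16 of 18 animals. OLR1 was also lower in 16 of 18 animals, with a change of −0.96 (SE 0.19, adjusted p = 0.000128), under the threshold on size. S100A12 and S100A8 changed by −0.74 (adjusted p = 0.237) and −0.72 (adjusted p = 0.319). From FR2 to FR20, 2 of 4 were called lower where 3.34% of all genes were, S100A12 at −1.22 (SE 0.48, adjusted p = 0.0416) and S100A9 at −1.64 (SE 0.52, adjusted p = 0.0113). S100A8 was at −1.35 (adjusted p = 0.0537) and OLR1 at −0.74 (adjusted p = 0.0015). Without FS animal 11 the call of S100A12 was lost (−1.04, adjusted p = 0.0877), and from FR2 to FR8 OLR1 was called (−1.02) and S100A9 was not (−1.18, adjusted p = 0.0637). The S100A9 call from FR2 to FR8 was lost on leaving out any of 15 of the 23 animals in turn, with an adjusted p of 0.0219 to 0.0819 over all of them.

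From FR8 to FR20 edgeR called 0 of the 4 genes in FS animals, where 0.278% of all genes were called lower, and 0 of the 4 were under an unadjusted p of 0.05 or called by DESeq2. The log2 fold changes were −0.48 for S100A12, −0.63 for S100A8, −0.41 for S100A9 and 0.22 for OLR1. Without the 5 animals the same comparison called 3 of 4, where 6.82% of all genes were called in either direction. S100A12 then fell by 1.64, S100A8 fell by 1.99 and S100A9 fell by 1.73 on the log2 scale, and S100A9 was lower at FR20 in 13 of 13 animals. OLR1 was at −0.14 (adjusted p = 0.649 by edgeR). From FR2 to FR20 all 4 were then called, where 21.6% of all genes were in either direction, with S100A9 at −2.85 and OLR1 at −1.12.

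**Figure D3:**
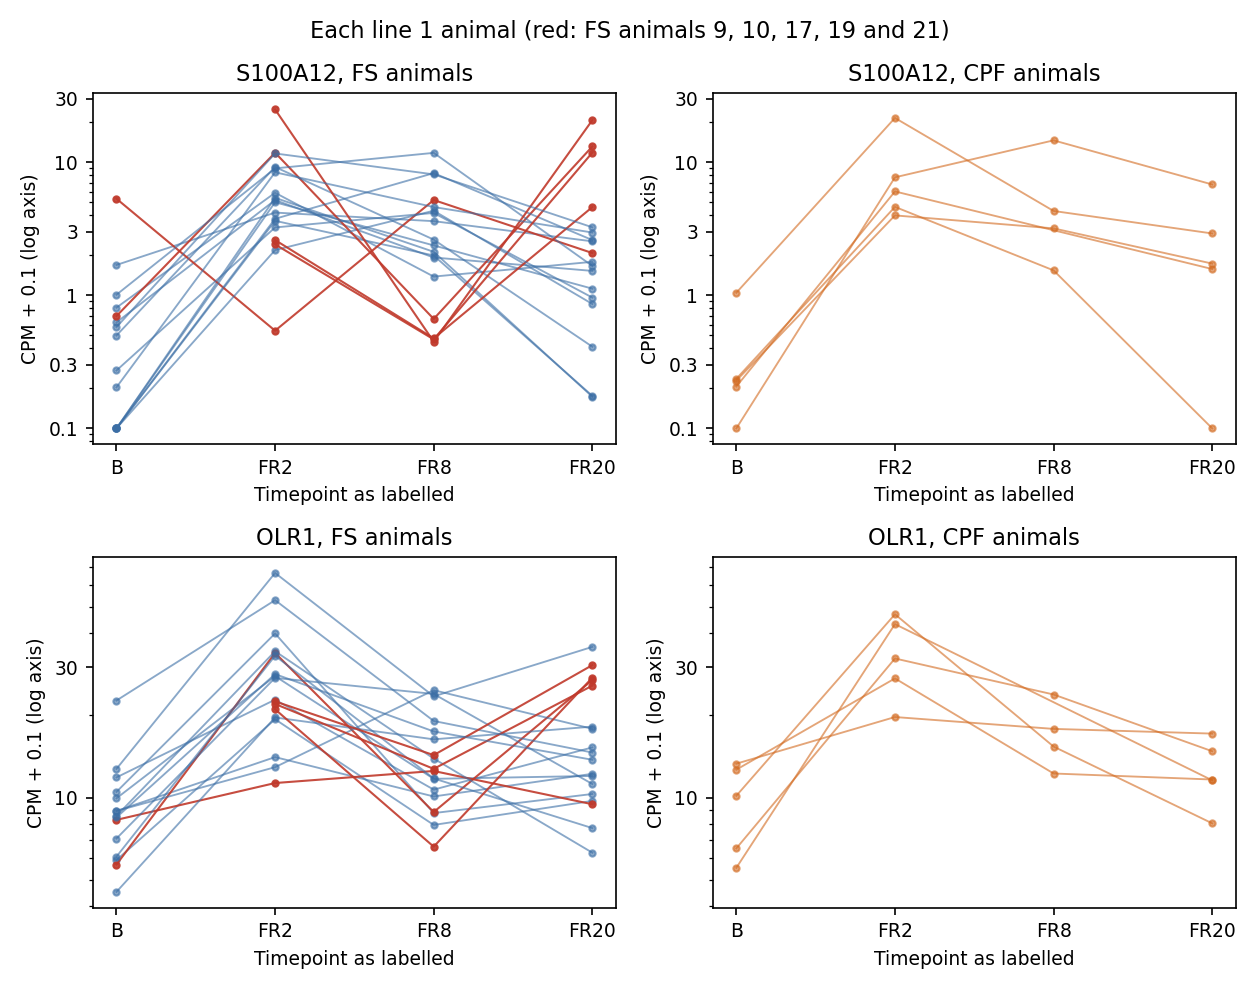
Level of S100A12 and of OLR1 in each animal across the labelled timepoints, as CPM plus 0.1 on a log axis, with FS and CPF animals in separate panels and FS animals 9, 10, 17, 19 and 21 in red. The red lines run against the common course, with S100A12 at 0.349 to 0.374 CPM at FR8 and 4.50 to 20.6 CPM at FR20 in animals 17, 19 and 21.

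The libraries of the 5 animals held the extremes of several FS groups. At FR8 the lowest FS values of S100A12 (0.349 CPM, animal 19), S100A9 (0.0916 CPM, animal 21) and OLR1 (6.51 CPM, animal 19) were theirs. At FR20 the highest FS values of S100A12 (20.6 CPM), S100A8 (11.6 CPM) and S100A9 (16.7 CPM) were all those of animal 19. With these animals left out, the highest FR20 values in the other 13 were 3.14 CPM for S100A12, 3.27 for S100A8 and 3.54 for S100A9, below their FR8 medians for S100A12 (3.51 CPM) and above them for S100A8 (2.31 CPM) and S100A9 (3.15 CPM).

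In CPF animals 3 of 4 genes were called higher at FR2 than at B, where 1.47% of all genes were. S100A12 rose by a log2 fold change of 5.12 (SE 1.15, adjusted p = 0.00833 by edgeR), S100A9 by 4.45 (SE 1.12, adjusted p = 0.019) and OLR1 by 1.84 (SE 0.37, adjusted p = 0.00497). S100A8 was at 3.53 (SE 1.20, adjusted p = 0.0801) and was not called by edgeR. It was called by DESeq2 (3.78, adjusted p = 0.0218) and by edgeR without the 5 FS animals (3.55, adjusted p = 0.00408), where the CPF libraries were the same. With the 3 left-out FS Baseline libraries kept, S100A9 was at 4.45 (adjusted p = 0.0523 by edgeR) and lost its call. All 4 were higher at FR2 in 5 of 5 animals. Leaving out CPF animal 13 left 0 of these calls, and leaving out CPF animal 18 left 1. At FR8, S100A12 alone was called against B (4.23, SE 1.21, adjusted p = 0.0158), 1 of 4 where 3.70% of all genes were called higher, and that call was lost without CPF animal 8 or 18. It was also the 1 gene with FR8 values wholly above B, against 7.38% of all genes. At FR20 edgeR called 0 of 4 against B, where 0.249% of all genes were called higher, with 1 of 4 (S100A12, log2 fold change 3.05, adjusted p = 0.177) under an unadjusted p of 0.05 and 0 called by DESeq2. S100A8, S100A9 and OLR1 were then at 0.93, 1.27 and 0.39, and 0 of 4 genes had FR20 values wholly above B, against 1.65% of all genes. The FR20 values include the library of CPF animal 13, which was most like the Baseline mean.

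All 4 genes were lower at FR20 than at FR2 in 5 of 5 CPF animals, among them animal 13, whose FR20 library was most like the Baseline mean. The comparison called 2 of 4 lower where 2.39% of all genes were, S100A9 (−3.18, SE 0.99, adjusted p = 0.0332 by edgeR) and OLR1 (−1.46, SE 0.36, adjusted p = 0.0134). S100A12 was at −2.07 (adjusted p = 0.122) and S100A8 at −2.59 (adjusted p = 0.0982). Without CPF animal 3 or 13 neither call was left. From FR2 to FR8 edgeR called 0 of 4 in CPF animals, where 2.36% of all genes were called lower, 1 of 4 (OLR1, −1.03) was under an unadjusted p of 0.05 and DESeq2 called 1. From FR8 to FR20 it called 0 of 4, where 0.0146% of all genes were called lower, with 0 under an unadjusted p of 0.05 and 0 by DESeq2.

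The comparison of the feeding groups asked whether carbohydrate before shock altered this course. The rise from B to FR2 was not distinguishable between CPF and FS animals. The CPF change minus the FS change was 1.83 for S100A12 on the log2 scale (95% interval −0.74 to 4.40), 0.24 for S100A8 (−2.67 to 3.14), 0.84 for S100A9 (−1.68 to 3.35) and 0.28 for OLR1 (−0.52 to 1.09), each with an adjusted p of 1 by edgeR. The intervals include differences of several fold in either direction for S100A8 and S100A9. For S100A12 the interval ran from 0.599-fold to 21.1-fold. The test called 0 of 4 and 0% of the 13667 genes, with 0 of 4 and 397 genes under an unadjusted p of 0.05, 0 genes by DESeq2 and 1 by edgeR's likelihood ratio test. At FR8 and FR20 the same test also called 0 of 4 and 0% of all genes, with 0 of 4 under an unadjusted p of 0.05. At Baseline itself the feeding groups were tested on 3 of the genes, S100A8 having fallen under the filter on low counts, and edgeR called 0 of 3 with 0.0257% of all genes called, 0 of 3 under an unadjusted p of 0.05 and 0 of 3 by DESeq2. The sign for S100A8 at FR2 turned without FS animal 10 (−0.54) and without each of CPF animals 3, 7 and 8 in turn (−0.17, −0.19 and −0.04).

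At FR2 itself CPF animals differed from FS animals by 0.41 for S100A12 (95% interval −0.63 to 1.44), 0.69 for S100A8 (−0.33 to 1.70), 0.84 for S100A9 (−0.20 to 1.87) and 0.26 for OLR1 (−0.33 to 0.85) on the log2 scale. EdgeR's adjusted p-values were 0.994, 0.973, 0.958 and 0.994. It called 0 of 4 and 0% of 11892 genes, with 0 of 4 and 664 genes under an unadjusted p of 0.05, 0 genes by DESeq2 and 2 by the likelihood ratio test. CPF animal 7 decided the direction for the S100 genes. Without it the differences were −0.25 for S100A12, −0.07 for S100A8 and −0.12 for S100A9.

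The animals that died were compared with those that lived at each timepoint, with feeding group as a covariate. At FR2 the 5 animals that died had 4.76 to 44.3 CPM of S100A9 (median 13.4), and the 18 that lived had 0.958 to 20.5 (median 5.50). The groups overlapped, and the log2 difference was 1.06 (SE 0.58, 95% interval −0.07 to 2.20, adjusted p = 0.941 by edgeR). The differences for S100A12, S100A8 and OLR1 were 0.63, 0.74 and 0.31, and the test called 0 of 4 and 0% of 11892 genes, with 0 of 4 under an unadjusted p of 0.05 and 0 of 4 by DESeq2. At FR8 the medians in animals that died and lived were 4.50 and 2.27 CPM for S100A12, 4.47 and 1.10 for S100A8, and 8.13 and 2.16 for S100A9, with overlapping ranges. There too edgeR called 0 of 4 and 0% of all genes, with 0 of 4 under an unadjusted p of 0.05 and 0 by DESeq2, and at FR20 the counts were the same. The FR20 differences were −0.13 for S100A12, 0.63 for S100A8, 0.32 for S100A9 and −0.42 for OLR1. Without the 5 animals whose libraries went against their labels they were 0.87, 1.91, 1.61 and −0.24, so that of S100A12 turned, and 2 of 4 were under an unadjusted p of 0.05 by edgeR (S100A8, p = 0.0245, adjusted p = 0.548, and S100A9, p = 0.0471, adjusted p = 0.605). At FR2 without them S100A12 was at 0.81 (unadjusted p = 0.0437, adjusted p = 0.744 by edgeR) and S100A9 at 1.17 (unadjusted p = 0.0242, adjusted p = 0.657). Without them too edgeR called 0 of 4 at FR2, FR8 and FR20.

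OLR1 at Baseline had the smallest unadjusted p among these genes in this comparison. It was at 8.46 to 22.6 CPM in the 5 animals that later died (median 12.5) and at 4.41 to 12.6 CPM in the 15 that lived (median 8.18). The log2 difference was 0.79 (SE 0.23, unadjusted p = 0.00272, adjusted p = 0.331 by edgeR), so it was not called, and the ranges overlapped. Of the 3 genes tested at Baseline edgeR called 0 of 3 and 0% of 11688 genes, with 0 of 3 by DESeq2.

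Across FS animals the 3 S100 genes varied together. Pearson's r of their log2 CPM was 0.89 for S100A12 with S100A8, 0.90 for S100A12 with S100A9 and 0.91 for S100A8 with S100A9 at FR2 (18 animals). Spearman's rho was 0.89, 0.86 and 0.86. At FR8 r was 0.92, 0.94 and 0.95, and at FR20 it was 0.91, 0.92 and 0.93. Each of these 9 relations had a permutation p of 1e-05, the smallest that 100000 permutations can give, and 3e-05 after adjustment over the 24 relations computed. Without the 2 animals farthest from the median of the first gene, r was 0.83 to 0.94 in these 9 relations. Leaving out the 5 animals above, r was 0.78 to 0.95 in 13 animals. At B, where most libraries held a handful of counts, r was 0.78 for S100A12 with S100A9 (rho 0.68, permutation adjusted p = 0.0015) and 0.81 for S100A8 with S100A9 (rho 0.66, permutation adjusted p = 0.0012) in 15 animals. For S100A12 with S100A8 it was 0.52 (rho 0.28, permutation adjusted p = 0.0584), and 0.16 without the 2 farthest animals.

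The correlations of OLR1 with the S100 genes were lower than those among the S100 genes at each timepoint, a difference that was not tested. At FR2 its r was 0.57 with S100A12, 0.64 with S100A8 and 0.62 with S100A9, with permutation adjusted p-values of 0.0188, 0.0064 and 0.0095 and rho of 0.48, 0.43 and 0.51. Without the 2 animals farthest from the median of the S100 gene the last of these r values fell to 0.36 and that with S100A8 to 0.33, so both rest on those animals. At FR20 r was 0.69, 0.71 and 0.76 (permutation adjusted p = 0.0022, 0.0022 and 9e-04), with rho of 0.73, 0.71 and 0.75 and r of 0.65, 0.62 and 0.67 without the 2 farthest. Without the 5 animals that went against their labels the FR20 values were 0.45, 0.43 and 0.52 (permutation adjusted p = 0.156, 0.166 and 0.0933), so at FR20 the relation did not hold without them. At FR8 r was 0.54, 0.46 and 0.42 (permutation adjusted p = 0.0292, 0.0654 and 0.0916), and at B it was 0.17, 0.32 and 0.22. The libraries share depth and scaling, which move all 4 levels of a library together.

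**Figure D4:**
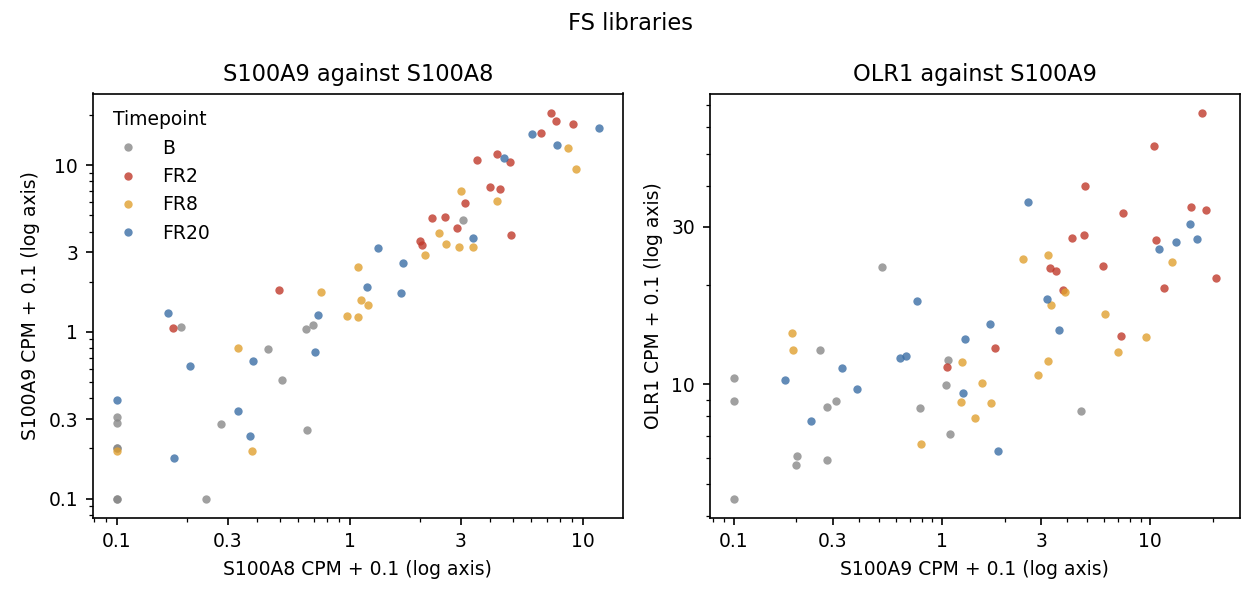
S100A9 against S100A8 and OLR1 against S100A9 in the FS libraries, as CPM plus 0.1 on log axes, with 1 point for each library and a color for each timepoint. S100A8 and S100A9 lie along a line at FR2, FR8 and FR20 (r of 0.91 to 0.95) and less closely at B (0.81), and OLR1 scatters more widely.

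Over all 88 libraries the 3 genes whose levels were most like S100A9 were S100A8 (Pearson's r = 0.94), S100A12 (0.91) and TGM3, a transglutaminase (0.87). TGM3 was also among the 3 for S100A8 (0.87), and SERPINB8, an intracellular serine protease inhibitor, was among those for S100A12 (0.82). With the mean of each feeding and time group removed, these last 3 values were 0.82 for S100A9 with TGM3, 0.83 for S100A8 with TGM3 and 0.69 for S100A12 with SERPINB8. OLR1 was most like S1PR3, a sphingosine-1-phosphate receptor (0.82), SDC4, the cell-surface proteoglycan syndecan-4 (0.81), and IPO5, a nuclear import receptor (0.78), and within groups these were 0.70, 0.67 and 0.62. The most alike genes of OLR1 and of the S100 genes had no name in common. These values describe 88 libraries from 23 animals that share time courses.

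The other genes of the neutrophil were described from lists of granule, surface and oxidase genes. Of 15 granule proteins listed, 12 had a row and 5 passed the filter on low counts. In FS animals at FR2, 2 of the 5 were called higher and 0 lower, where 5.17% and 5.85% of all genes were. The median log2 fold change of the 5 was 0.34, against −0.04 over all genes. LTF (lactoferrin, an iron-binding protein of secondary granules) rose by 3.58 (SE 0.68, adjusted p = 2.633e-05 by edgeR), from 0 to 0.966 CPM at B to 0 to 5.54 CPM at FR2, with overlapping ranges. LCN2 (lipocalin-2, which binds bacterial iron carriers and which hepatocytes also make) rose by 2.47 (adjusted p = 1.836e-05). MPO, the peroxidase of primary granules, was at 0.26 at FR2 (adjusted p = 0.799) and was called at FR20, at 2.61 (adjusted p = 0.000214), as was LCN2 (2.73). LCN2 and MPO were named here after their values were seen. The lowest change among the 5 granule genes in FS animals was 0.13 at FR2, −0.39 at FR8 and −0.26 at FR20. In CPF animals 2 of 5 were called higher at FR2, LTF (4.56) and LCN2 (2.84), where 1.47% of all genes were.

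The summed level of the 12 granule genes with a row was 1.14 to 36.8 CPM at B in FS animals (median 3.37) and 8.57 to 55.4 CPM at FR2 (median 16.1). In CPF animals it was 2.17 to 20.6 CPM at B and 10.6 to 44.9 CPM at FR2. These ranges overlapped in both feeding groups, and the medians were higher at FR2 in both. Of the list, CTSG, CAMP and PGLYRP1 had no row under their symbol and were not analysed here.

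Of 15 surface and oxidase genes tested, 1 was called higher at FR2 in FS animals and 1 lower, where 5.17% and 5.85% of all genes were, with a median of 0.09. IL1R2, the decoy receptor for interleukin-1 that neutrophils carry, rose by 2.44 (SE 0.39, adjusted p = 1.286e-06 by edgeR), from 0 to 0.944 CPM at B to 0.742 to 6.41 CPM at FR2. ITGAM (CD11b, the integrin chain of neutrophils, monocytes and Kupffer cells) fell by 1.05 (SE 0.23, adjusted p = 0.000262), from 0.841 to 5.48 CPM to 0.497 to 2.97 CPM. Without FS animal 11 ITGAM was at −0.95, under the threshold on size. In CPF animals IL1R2 alone was called at FR2 (2.49), where 1.47% of all genes were called higher. The summed level of the 16 surface and oxidase genes with a row was lower at FR2, unlike that of the granule genes. Its FS median was 783 CPM at B and 650 at FR2, and its CPF median was 896 and 867, with overlapping ranges in both. CXCR1, CXCR2, FPR1 and FPR2, which define neutrophils most sharply, had no row under their symbol, so the label of neutrophil genes could be checked against its markers only in part.

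**Figure D5:**
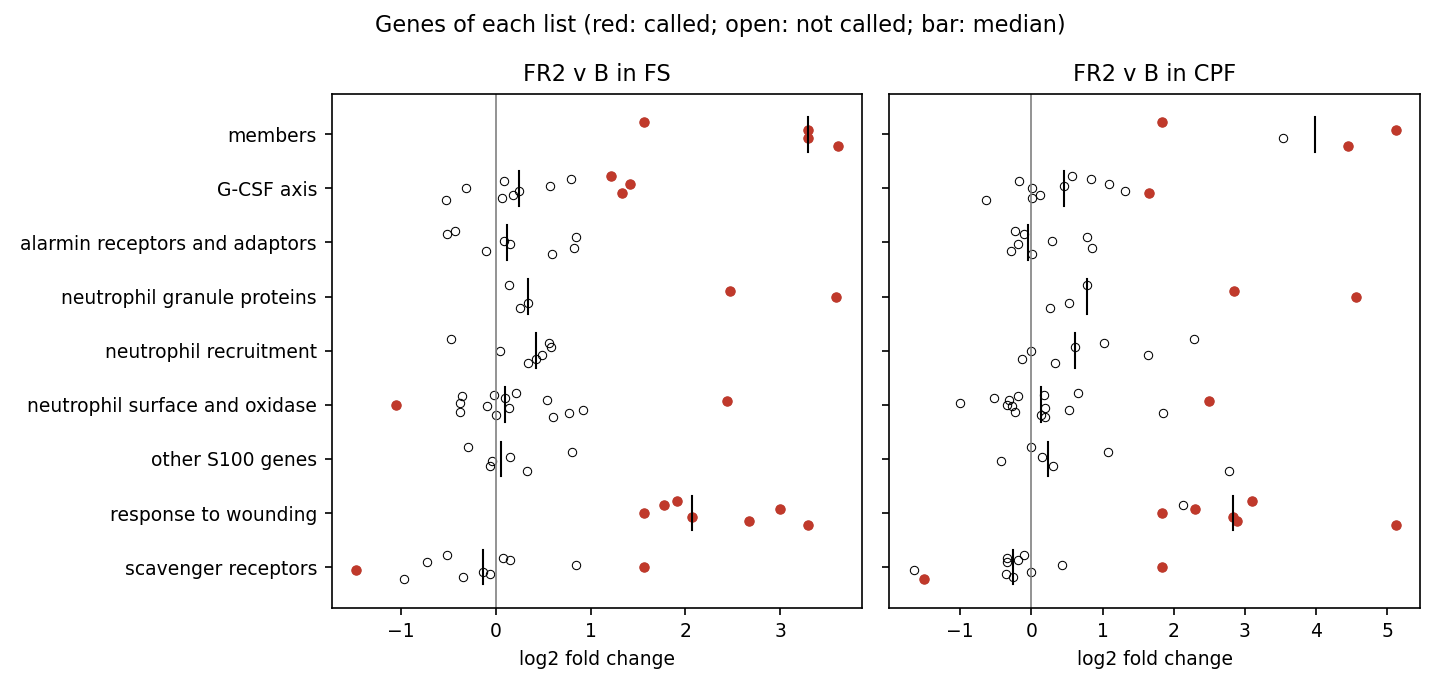
Log2 fold change from B to FR2 of each tested gene of each list, in FS and CPF animals, with red points for called genes, open points for the others and a bar at the list's median. The wounding genes lie to the right of 0 with a median of 2.07 in FS animals, and the medians of the other S100 genes, receptors, recruitment genes and scavenger receptors lie between −0.14 and 0.42.

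In the main fit the other S100 genes passed no call at FR2. Of the 16 other S100 genes listed, 6 were tested, and edgeR called 0 in either direction at FR2 in FS animals (2 of 6 under an unadjusted p of 0.05), with a median of 0.06 against −0.04 over all genes. S100A10, the annexin A2 partner, was the highest at 0.80 (SE 0.22, adjusted p = 0.00211), and S100A1, a calcium sensor best known from muscle, the lowest at −0.30 (adjusted p = 0.0884). S100A6 had a row at 0 counts. In CPF animals edgeR called 0 of 6 at FR2 (2 of 6 under an unadjusted p of 0.05), with the highest at 2.78. Without the 5 FS animals it called 1 of 6 higher there, where 5.66% of all genes were called in either direction. At FR8 in FS animals it called 0 of 6. Without those 5 it called 2 of 6 higher, where 20% of all genes were called. The summed level of 10 such genes had an FS median of 191 CPM at B and 322 at FR8. The CPF medians were 160 and 454. Among the receptors and adaptors through which alarmins signal, edgeR called 0 of 8 at FR2 in FS animals (4 of 8 under an unadjusted p of 0.05). IRAK1, a kinase downstream of the adaptor MYD88, was highest at 0.84 (adjusted p = 0.0189 by edgeR) and CD36, a fatty acid and lipoprotein receptor, lowest at −0.52 (adjusted p = 0.229). Both had 0 counts in the FR2 and FR8 libraries of FS animal 11. Without that animal IRAK1 was called at FR2 (1.02, adjusted p = 7.086e-06 by edgeR), CD36 was at −0.32 (adjusted p = 0.229), and CD14 was the lowest of the list. At FR8, 1 was called higher (MYD88) and 1 lower (CD36), and without FS animal 11 IRAK1 was also called higher (1.14).

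With CSF3R at 0 counts, the receptor for granulocyte colony-stimulating factor could not be followed, and genes listed for its signaling were described instead. Whether their changes in bulk liver came from that factor was not tested. Of 11 tested, 3 were called higher at FR2 in FS animals and 0 lower, where 5.17% and 5.85% of all genes were, with a median of 0.25. They were the kinase JAK1 (1.42, SE 0.25, adjusted p = 9.528e-06 by edgeR), the transcription factor STAT3 (1.33, adjusted p = 4.797e-06) and CEBPA (1.21, adjusted p = 9.984e-05), a factor of both granulocytes and hepatocytes. STAT3 and CEBPA were named after their values were seen. TYK2, another Janus kinase, was the lowest at −0.53 (adjusted p = 8.658e-05). In CPF animals 1 of 11 was called higher, STAT3 at 1.66, where 1.47% of all genes were. Of 7 tested genes of neutrophil recruitment edgeR called 0 at FR2 (1 of 7 under an unadjusted p of 0.05), with the endothelial adhesion molecule ICAM1 highest at 0.58 (adjusted p = 0.000516) and the chemokine CXCL2 lowest at −0.48 (adjusted p = 0.411).

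Among 11 tested scavenger receptors OLR1 was the 1 called higher at FR2 in FS animals, where 5.17% of all genes were called higher and 5.85% lower. SCARA5, a ferritin receptor, was the 1 called lower, at −1.48 (SE 0.38, adjusted p = 0.00128 by edgeR), and the median was −0.14. In CPF animals too OLR1 was the 1 called higher, where 1.47% of all genes were, and 1 of 11 was called lower.

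S100A12 and OLR1 belong to a group of 7 genes that the study listed under response to wounding. The study chose that list on these samples, so its direction is not independent evidence. In FS animals 7 of 7 were called higher at FR2, where 5.17% of all genes were, with a median log2 fold change of 2.07. NOD1, a cytosolic sensor of bacterial peptidoglycan, rose by 3.002 (SE 0.34, adjusted p = 1.253e-09 by edgeR), from 0.621 to 7.16 CPM at B to 5.11 to 62.3 CPM at FR2. PLAUR, the urokinase receptor, rose by 2.67 (SE 0.43), from a median of 3.89 to 29.2 CPM. PLAT, tissue plasminogen activator, rose by 2.07 (SE 0.40), from a median of 6.94 to 33.1 CPM. ADM, the vasodilator adrenomedullin, rose by 1.92 (SE 0.35), from a median of 7.39 to 29.2 CPM. ITGA2, the collagen-binding integrin α2 chain, rose by 1.77 (SE 0.38), from a median of 5.08 to 19.7 CPM. For each of these 5 genes the FS ranges at B and FR2 overlapped.

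The wounding genes parted after FR2. At FR8, 4 of 7 were called higher than B in FS animals, where 4.44% of all genes were. These were S100A12, ITGA2 (2.11), NOD1 (1.63) and PLAUR (1.21). At FR20 the same 4 were called, where 4.68% of all genes were called higher. ITGA2 was then at 1.43, NOD1 at 1.55 and PLAUR at 1.41. PLAT was at 0.34 and 0.65 and ADM at 0.04 and 0.25 at FR8 and FR20, not called. ITGA2 had its highest FS median at FR8 (26.0 CPM), unlike the other 6 genes of the list. In CPF animals 6 of 7 were called higher at FR2, where 1.47% of all genes were, with a median of 2.83. ITGA2 (2.13, adjusted p = 0.0555 by edgeR) was not called.

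Among the markers of other cells 2 genes were called at FR2 in FS animals, where 5.17% of all genes were called higher and 5.85% lower. There edgeR called 0 of 6 Kupffer cell, 0 of 8 T and NK cell, 0 of 3 B cell, 0 of 1 platelet, 0 of 5 endothelial and 0 of 7 striated muscle genes. At an unadjusted p of 0.05 these counts were 5 of 6, 3 of 8, 2 of 3, 0 of 1, 2 of 5 and 1 of 7. Of 4 erythroid genes it called ALAS2, the first enzyme of heme synthesis in red cell precursors, lower (−1.13), and of 8 hepatocyte genes TAT, a tyrosine aminotransferase, lower (−1.74). Without FS animal 11, in which ALAS2, HBB, CD3D, APOA1 and FGB had 0 counts at FR2 or FR8, ALAS2 was at −0.99 and not called, and 2 of 3 B cell and 2 of 8 hepatocyte genes were called lower. The summed Kupffer cell genes were at 333 to 679 CPM at B and 261 to 624 CPM at FR2, the T and NK cell genes at 34.2 to 92.9 and 32.8 to 105 CPM, and the endothelial genes at 121 to 264 and 139 to 444 CPM, all overlapping. The hepatocyte sum had a median of 186049 CPM at B, 131748 at FR2 and 48271 at FR20, and the striated muscle sum was at 11.9 to 89.1 CPM at B and 10.9 to 168 at FR2. CLEC4F of the Kupffer cell list and GP6 of the platelet list were at 0 counts. The part of these values in the change of the S100 genes and OLR1 was not tested.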

How the data were processed

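Liver RNA of 23 pigs was sequenced by the authors as poly(A) single reads. Per the submitters' processing notes, CASAVA 1.8.2, TopHat 1.5.0, SAMtools, HTSeq and edgeR 3.2.4 were used with build Sscrofa10.2. The deposited table holds raw counts per pig Ensembl identifier, with replicates not pooled. How HTSeq treated strand and reads shared between genes was not given in the sources used here, so counts of related or overlapping genes are uncertain to that extent. Of 25322 identifiers, 12504 had a symbol, in a gene name table or in tables of the study.

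Counts of 88 libraries were tested with edgeR 4.0.16 in R 4.3.3 (TMM, sum of CPM of at least 10, quasi-likelihood F test, 2-sided), with a term for each animal and FR2, FR8 and FR20 terms for each feeding group. Comparisons within a timepoint used its libraries. DESeq2 1.42.0 and limma 3.58.1 served the alternatives and design handling, and correlations and plots used Python 3.11.15 with scipy 1.17.1, numpy 2.4.6, matplotlib 3.10.9 and pandas 2.3.3. Within-animal changes and correlations used log2 CPM with a prior count of 2. Scripts were tested on simulated counts.

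Animal numbers mark the same pig. After group and time were removed, pairs of libraries from 1 pig correlated at a median of 0.21, with 94 of 126 above 0.1, and pairs from different pigs at −0.02, with 414 of 1791 above 0.1. Each pig gave 1 library per timepoint. The p-values for changes over time rest on how within-pig changes varied from pig to pig, and those within a timepoint on the spread between pigs. The fit over time shared 1 estimate of the spread between FS and CPF animals, so its CPF p-values also depend on the FS animals. Genes and lists were chosen with earlier results of these data known. Named beyond them were, for most lists other than the markers, the genes with the highest and lowest change at FR2 in FS animals, and for each gene the 3 most alike. Intervals cover 95%.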

Additional observations from a re-analysis of the deposited data

Results flagged for a closer look

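S100A8 in CPF animal 7 at FR2 stood apart from its group. It was at 16.6737 CPM, and the other 4 CPF animals were at 3.32 to 4.41 CPM, so on the log2 scale the gap to the nearest animal made up 0.827 of the whole range. Of 16 sets of 4 or 5 CPF animals and a gene looked at, this was the 1 that stood apart by Dixon's 95% limit, and chance gives about 1 in 20. The same library also had the highest CPF values of S100A12 and S100A9 at FR2.

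The 3 Baseline libraries left out for lack of albumin held the S100 genes above every Baseline library that was used. On each library's own total, FS animals 17, 19 and 21 had 13.2408, 13.3155 and 47.6024 CPM of S100A12, and the highest of the other FS Baseline libraries was at 5.7784. S100A8 was at 9.2538, 8.9161 and 25.3921 CPM, against a highest value of 3.2816 in the others. S100A9 was at 10.9274, 14.6647 and 37.9946 CPM, against 5.065. OLR1 was at 3.40, 0.939 and 6.68 CPM, below the range of 3.72 to 19.3 CPM in the others for animals 17 and 19 and within it for animal 21. Albumin had 4, 899 and 5 counts in these libraries.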

How the results depend on the processing

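The 4 genes called at FR2 against B in FS animals were 4 under every alternative run, and the 3 at FR8 lay between 2 and 4. The calls at later timepoints and in CPF animals moved, and the cause was not tested. Without a replicate block (no term for the animal) the calls from FR2 to FR20 were 0 in FS and 1 in CPF animals, in place of 2 and 2, and the FS changes from FR8 to FR20 turned to 0.15 for S100A12 and 0.24 for S100A9. With the 3 Baseline libraries kept (91 libraries), and likewise with all 92, the calls were 1 at FR20 against B and 0 from FR2 to FR8 in FS animals, and in CPF animals 0 at FR8 against B and 1 from FR2 to FR20. With 91 libraries the 1 at FR20 was OLR1, the 3 S100 calls being lost. Without all libraries of those 3 animals they were 1 at FR20 against B and 3 from FR8 to FR20 in FS animals (OLR1 then at −0.035), and 2 at FR8 against B and 1 from FR2 to FR8 in CPF animals. Without FS animals 9, 10, 17, 19 and 21, an alternative chosen after seeing the data, they were 3 from FR8 to FR20 (OLR1 at −0.14) and 4 from FR2 to FR20 in FS animals. In CPF animals they were 4 at FR2, 2 at FR8 and 1 at FR20 against B, 1 from FR2 to FR8 and 4 from FR2 to FR20, and the CPF minus FS change of S100A8 at FR2 was −0.58. On the libraries' own totals the calls in FS animals were 0 from FR2 to FR8 and 1 from FR2 to FR20, with no filter beyond 1 count the latter was 1, the likelihood ratio test gave 0 from FR2 to FR8, the adjusted p alone gave 2, and DESeq2 gave 1 from FR2 to FR8 in CPF animals.

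Leaving out 1 animal at a time, the calls ranged in FS animals from 1 to 3 at FR20 against B, 0 to 2 from FR2 to FR8 and 1 to 3 from FR2 to FR20. In CPF animals they ranged from 0 to 3 at FR2 and 0 to 1 at FR8 against B, and from 0 to 2 from FR2 to FR20. The S100A8 change at FR20 against B in CPF animals ranged from −0.19 (without CPF animal 8) to 2.77, and its CPF minus FS change at FR2 from −0.54 to 1.82. The CPF minus FS difference at FR2 ranged from −0.25 to 0.69 for S100A12, −0.068 to 0.85 for S100A8 and −0.12 to 1.06 for S100A9, each lowest without CPF animal 7. The survival difference at FR20 ranged from −0.70 to 0.52 for S100A12 and −0.19 to 1.10 for S100A9, and that of S100A12 was 0.87 without the 5 animals. Of the fitted changes of single genes over time, by feeding at FR2, and by survival at FR2, FR20 and B (OLR1), 796 kept their direction and side of the threshold under the other alternatives, 25 lost it, 32 passed it and 6 reversed. Among those not counted, the CPF minus FS difference at FR20 turned without the 5 animals for S100A12 (−0.62 to 0.82), S100A8 (−0.70 to 0.76) and S100A9 (−1.04 to 0.65), and the CPF minus FS change of S100A9 from B to FR8 went from 0.39 to −0.35.

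Of the correlations, on own totals that of S100A12 with S100A8 at B (0.60) and those of OLR1 with S100A8 (0.58) and S100A9 (0.56) at FR8 passed the threshold. Without the 5 animals it was lost for S100A8 with S100A9 at B (0.62) and for OLR1 with S100A8 (0.57) and S100A9 (0.60) at FR2, S100A12 at FR8 (0.53), and S100A12 (0.45), S100A8 (0.43) and S100A9 (0.52) at FR20. With 91 libraries the Baseline correlations of OLR1 turned to −0.51 with S100A12, −0.50 with S100A8 and −0.52 with S100A9, and that of S100A12 with S100A8 was 0.86.

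Most Baseline libraries held few or 0 counts of the S100 genes, so their fold changes from Baseline have wide intervals, and the CPF comparisons rest on 4 or 5 animals.

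Counts over all genes tested moved more widely, and the cause was not tested. In FS animals FR2 against B gave 1505 genes called (1314 to 5653 over the alternatives other than leaving out 1 animal), FR8 gave 1617 (1226 to 5374) and FR20 gave 1358 (1018 to 4617), each highest on the adjusted p alone. In CPF animals FR2 gave 329 (94 to 758), FR8 gave 1207 (409 to 1819) and FR20 gave 96 (0 to 577). Leaving out 1 animal gave 19 genes at FR2 in CPF animals without CPF animal 13, 316 at FR8 without CPF animal 18 and 0 at FR20 without CPF animal 3. On own totals the median within-animal change from B over all genes rose above that under TMM by 0.41 (log2) in FS and 0.33 in CPF animals at FR20, and the OLR1 change at FR20 in FS animals was 1.23 on that scale against 0.82 under TMM.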
